A study of Mus musculus with 6 samples.

Results

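The miRNA precursors of the imprinted Dlk1-Dio3 locus on mouse chromosome 12 are described here in small RNA libraries of lineage-negative bone marrow cells, the fraction depleted of mature blood cells. Members were all features that start after the end of Dlk1, at 109463336, and before the start of Dio3, at 110279068 (GRCm38), and whose GENCODE M21 gene with the same start and end is typed miRNA. This gave 29 of the 1823 features listed in at least 1 library, and 29 of the 67 miRNA genes that GENCODE annotates in the interval. They fall into 3 subclusters by start: 7 lie between Meg3 and Rian, on the side of the Rtl1 antisense transcript, 1 lies in Rian, and 21 lie from Mir379 onwards, before and within Mirg. Annotated genes with no read in any library numbered 10 on the Rtl1 antisense side, 4 on the Rian side and 24 on the Mirg side.

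The series compared 3 libraries of mice with the genotype Mat KO, here taken as a mutation inherited from the mother and called KO, with 3 libraries of wild-type mice (WT). The sources used here do not give the deleted segment, the strain, the age or the number of animals, and the p-values rest on the spread among single libraries, which could be technical. Library totals were 47299957 to 51837721 counts in KO and 45398303 to 53299322 counts in WT. The libraries were cut from a gel at the size of snoRNAs plus adapters, so reads of a miRNA feature are reads over its precursor's place and do not measure the shorter mature miRNA.

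In mice the maternal chromosome of this locus expresses non-coding transcripts in a row, from Meg3 (Gtl2) through the Rtl1 antisense transcript and Rian to Mirg, while Dlk1, Rtl1 and Dio3 are expressed from the paternal chromosome. The miRNA hairpins sit along these transcripts, and each hairpin is cut by Drosha and Dicer into mature miRNAs that pair with messenger RNAs mainly through bases 2 to 8, the seed. The miRNAs encoded opposite Rtl1, miR-127 among them, are fully complementary to the Rtl1 message and direct its cleavage. In mouse haematopoietic stem cells the miRNAs of the locus have been linked to restraint of PI3K-mTOR signalling.

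Of the 29 members, 7 had at least 10 reads over the 6 libraries, and these held 344 of the 406 member reads (84.7%). They were Mir493 and Mir127 on the Rtl1 antisense side, Mir370 on the Rian side, and Mir543, Mir381, Mir409 and Gm24321 on the Mirg side. The mature sequences of the 6 with a RefSeq entry (GRCm38.p6) are shown so that the regulators behind the reads can be told apart, 5′ to 3′ with the seed in capitals.
miR-493-5p: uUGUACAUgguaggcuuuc
miR-493-3p: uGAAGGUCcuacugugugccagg
miR-127-5p: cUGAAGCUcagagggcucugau
miR-127-3p: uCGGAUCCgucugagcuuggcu
miR-370-5p: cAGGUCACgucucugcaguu
miR-370-3p: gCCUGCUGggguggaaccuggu
miR-543-5p: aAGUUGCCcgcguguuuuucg
miR-543-3p: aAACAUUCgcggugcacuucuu
miR-381-5p: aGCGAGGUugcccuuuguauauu
miR-381-3p: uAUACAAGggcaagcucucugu
miR-409-5p: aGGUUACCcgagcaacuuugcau
miR-409-3p: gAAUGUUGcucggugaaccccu
The 12 arms carry 12 different seeds, so none of the 6 shares a seed with another.

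Seeds were shared between rarer neighbours. Within the locus, 1 seed was common to 2 listed members, that of miR-379-3p and miR-411-3p, whose precursors gave 1 and 3 KO reads and 0 and 2 WT reads. The 3p arms of miR-381 and miR-300 match at 19 of 22 bases and differ in the seed by A4G, counted from the 5′ end with the base of miR-381 first. Their precursors differed in reads: Mir381 had 57 KO and 11 WT reads, and Mir300 had 2 KO and 0 WT reads. These 3 arms of neighbours are shown for comparison, with seeds in capitals.
miR-379-3p: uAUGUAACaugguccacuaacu
miR-411-3p: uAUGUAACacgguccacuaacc
miR-300-3p: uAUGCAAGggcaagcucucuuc

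A pair of the 7 members cannot be separated. Mir409 (chr12:109743158-109743236, plus strand) and Gm24321 (chr12:109743158-109743237, minus strand) occupy the same place within an intron of Mirg, and the 79 bases of Mir409 are the reverse complement of Gm24321 less its first base. The strand setting of the authors' counting is unknown here, so the reads of the pair are reported for each feature as deposited and may hold the same transcript. The precursors from GENCODE M21 are shown because this overlap bears on every count of the Mirg side, with the place of the mature miR-409 arms in capitals.
Mir409: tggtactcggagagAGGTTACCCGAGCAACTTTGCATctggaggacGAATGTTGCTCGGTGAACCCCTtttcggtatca
Gm24321: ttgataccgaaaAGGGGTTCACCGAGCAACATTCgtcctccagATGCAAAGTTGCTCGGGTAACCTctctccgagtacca
Mir136 and Mir3071, rarer members opposite each other within an exon of Rtl1, also overlap, and had 2 and 3 KO reads and 1 and 2 WT reads.

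The locus snoRNAs, which lie between the Mir370 and Mirg groups, separated the libraries by genotype label. The 10 listed features held 3, 2 and 2 reads in KO replicates 1 to 3, against 87, 106 and 94 reads in WT replicates 1 to 3. This list was chosen with earlier results of these data known, and the deleted segment is not given. The separation is therefore not an independent check of the labels.

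**Figure D1:**
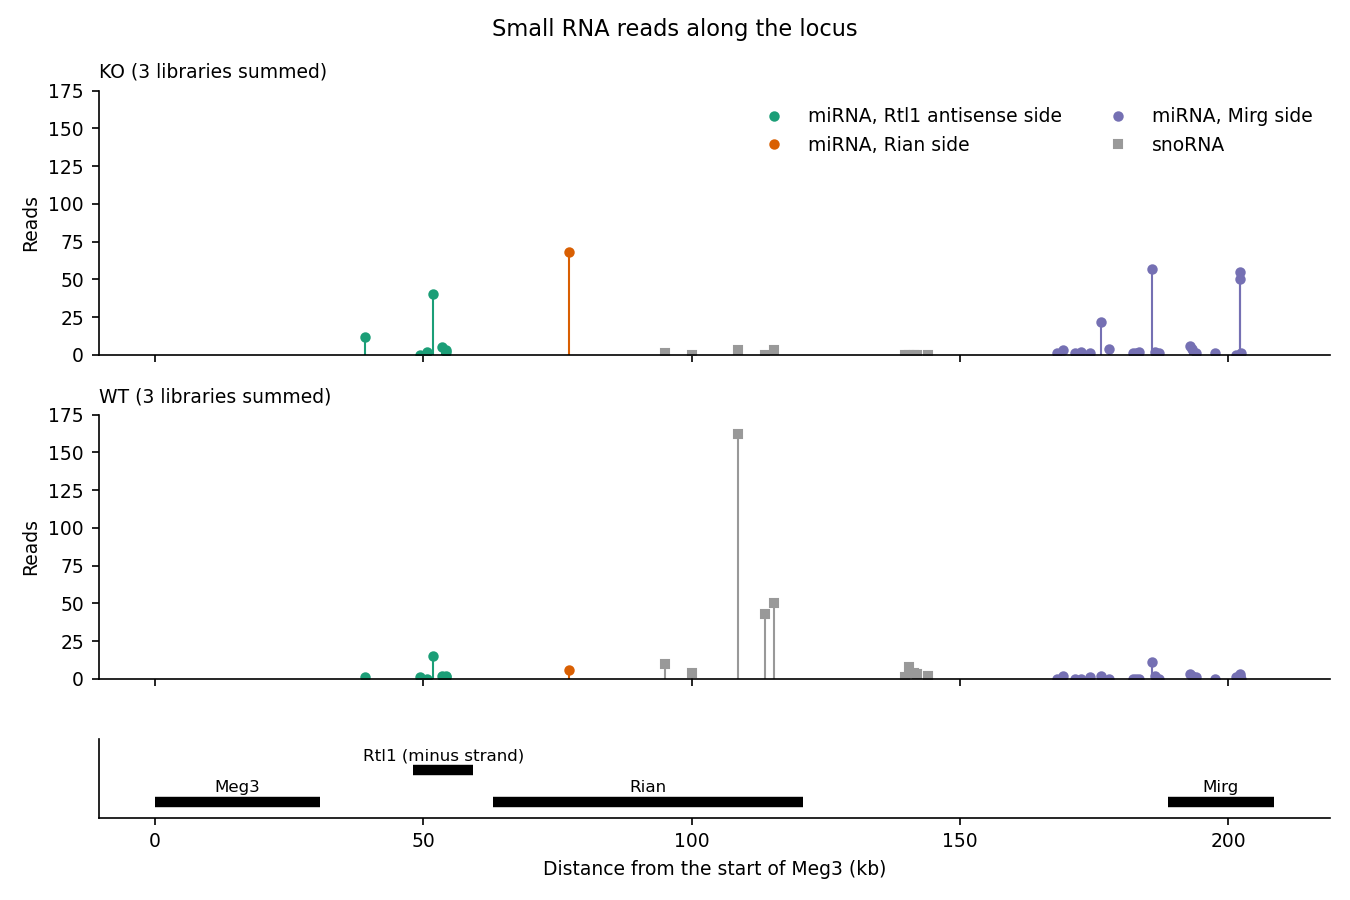
Reads summed over the 3 KO libraries (top) and the 3 WT libraries (middle) for each listed miRNA and snoRNA feature, against distance from the start of Meg3 in kb, with the spans of 4 longer genes (bottom). The miRNA features have 348 reads in KO and 58 in WT, and the tall snoRNA peaks of Rian lie almost wholly in WT, led by DQ267100 with 3 reads in KO and 162 in WT.

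The libraries were not alike in their miRNA content outside the locus. Over 211 miRNA features outside the locus with a mean of at least 10 counts, the median log2 deviation from the 6-library mean for KO replicates 1 to 3 was -0.23, 0.52 and 0.06, and for WT replicates 1 to 3 it was -0.47, 0.37 and -0.13. WT replicate 1 was therefore the lowest and KO replicate 2 the highest. KO replicate 2 also held the muscle miRNAs Mir1a-1 (258 reads, 2 to 9 in the other 5 libraries) and Mir133a-2 (116 reads, 0 or 1 in the others). These muscle markers were chosen after their values were seen, and the 6 of that list summed to 14.9 CPM in KO replicate 2, against 0.0825 to 0.354 CPM in the other 5 libraries.

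As a group, the locus miRNA features had more reads in the KO libraries, and no single member passed the test over all features. All 29 together had 19, 109 and 220 reads in KO replicates 1 to 3, against 2, 36 and 20 reads in WT replicates 1 to 3. KO replicate 1 and WT replicate 3 were level, at 0.392 and 0.394 CPM (counts per 1000000 of the library total), so the genotypes overlapped. Members with a read numbered 5, 25 and 19 in KO replicates 1 to 3, against 2, 16 and 9 in WT replicates 1 to 3. A level of 1 read was 0.0188 to 0.0220 CPM, and a count of 0 allows up to 0.0563 to 0.0661 CPM (3 counts). These limits and all intervals cover counting error only and leave out the spread between libraries. The PCR reads also carry no molecular identifiers, so repeat reads of a molecule cannot be told apart.

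By edgeR's quasi-likelihood test with Benjamini-Hochberg adjustment over all 1823 features, none of the 29 was called at an adjusted p under 0.05. The background was 0% of all features called higher and 0.0549% called lower. At an unadjusted p under 0.05, 7 of the 29 were higher in the KO libraries and 0 were lower, where 2.03% of all features were higher and 4.61% lower. These were the same 7 members that had at least 10 reads. The match is not separate support, since the read rule depends on the KO reads. Mir493, Mir370, Mir543, Mir409 and Gm24321 had 1 to 6 WT reads each and reached 10 only through KO. Without KO replicate 3 the unadjusted count was 2 of 29, where 1.81% of all features were higher. It was 2 of 29 without WT replicate 1, where 1.36% of all features were higher, and 3 of 29 without WT replicate 3, where 1.15% were. The older quasi-likelihood method of edgeR called 3 members, Mir370, Mir409 and Gm24321, where it called 0.439% of all features higher, and DESeq2 called 0. With scaling factors taken from miRNA features outside the locus, a setting chosen after seeing the data, 5 members were called where 0.768% of all features were called higher. In a fit over the 912 miRNA features alone, also chosen later, 3 members were called where 0.987% of those features were called higher.

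Mean CPM was higher in the KO libraries for 24 members and lower for 5, where 37.2% of all features were higher. Of these, 11 members had no WT read and 2 had no KO read, and 9 members rested on 1 read in all. Among the 16 members with reads in both genotypes the median log2 fold change was 1.17, against -0.06 over the 1330 such features of the whole table and 0.12 over the 597 such miRNA features outside the locus. Only Mir409 had every KO library above every WT library, 1 of 29, where 1.26% of all features did so, and with its reads and those of its antisense partner Gm24321 summed no member did.

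**Figure D2:**
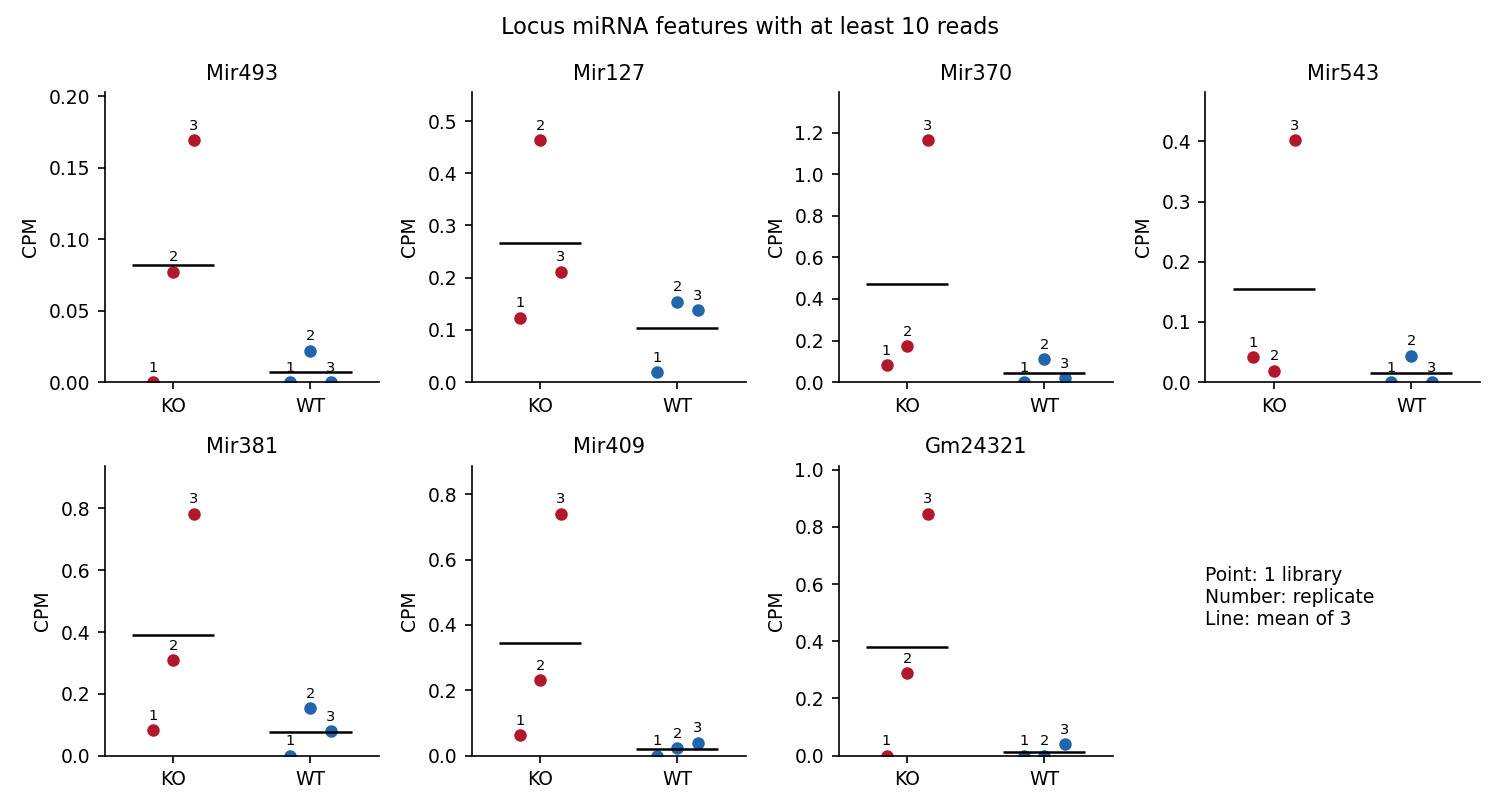
Level in CPM of the 7 members with at least 10 reads, KO left and WT right, with 1 point per library, the replicate number above it and the mean as a line. KO replicate 3 is the highest library for 6 members, and KO replicate 2 is the highest for Mir127.

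On the Rtl1 antisense side the reads were mostly those of Mir127, and its highest library was KO replicate 2. Mir127 (chr12:109592846-109592915, plus strand, opposite an exon of Rtl1) had 6, 24 and 10 reads in KO replicates 1 to 3, against 1, 7 and 7 reads in WT replicates 1 to 3. KO replicate 1, at 0.124 CPM, lay below WT replicates 2 and 3, at 0.154 and 0.138 CPM. Its level was 0.266 ± 0.176 CPM in KO and 0.104 ± 0.0739 CPM in WT (SD, n = 3 each). The log2 fold change was 1.52 (SE 0.68, adjusted p 0.677 by edgeR's quasi-likelihood test), and it was 0.89 without KO replicate 2. The pooled fold was 2.70, with a 95% counting interval of 1.46 to 5.26 by the exact binomial method. The precursor is printed with its mature arms in capitals, since it was the member most read in the WT libraries.
Mir127: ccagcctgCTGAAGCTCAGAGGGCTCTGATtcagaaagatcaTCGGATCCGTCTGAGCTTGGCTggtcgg

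Mir493 (chr12:109580233-109580315, plus strand), which lies between Meg3 and Rtl1 and is spanned by no longer gene in GENCODE M21, had 0, 4 and 8 reads in KO replicates 1 to 3, against 0, 1 and 0 reads in WT replicates 1 to 3. KO replicate 1 had no read and thus did not differ from WT replicates 1 and 3. Its log2 fold change was 3.28 (SE 1.32, adjusted p 0.677 by edgeR's quasi-likelihood test), and the pooled fold was 12.2, with a counting interval of 1.80 to 519. Leaving out KO replicate 3 gave a log2 fold change of 2.36, and its only WT read lies in WT replicate 2. The other 5 members of this side, Mir431, Mir433, Mir434, Mir3071 and Mir136, all lie within an exon of Rtl1, with Mir3071 on the strand of Rtl1 and the others opposite it. They had at most 7 reads each, 12 KO and 6 WT reads in all, and Mir431 had its 1 read in a WT library.

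Summed, the 7 features of the Rtl1 antisense side had 6, 35 and 23 reads in KO replicates 1 to 3, against 2, 12 and 8 reads in WT replicates 1 to 3. This came to 0.428 ± 0.28 CPM in KO and 0.153 ± 0.113 CPM in WT (SD, n = 3 each), a log2 ratio of means of 1.48. KO replicate 1 lay between WT replicates 1 and 3, so the genotypes overlapped. Without KO replicate 2 the log2 ratio was 0.99. No p is given for sums over members, since the members were chosen with results of these data known.

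The Rian side rested on Mir370 alone, and its KO reads came mainly from KO replicate 3. Mir370 (chr12:109618258-109618336, plus strand, in an intron of Rian) had 4, 9 and 55 reads in KO replicates 1 to 3, against 0, 5 and 1 reads in WT replicates 1 to 3. KO replicate 3 stood at 1.16 CPM, while KO replicates 1 and 2, at 0.0825 and 0.174 CPM, lay on either side of WT replicate 2, at 0.110 CPM. The level was 0.473 ± 0.599 CPM in KO and 0.0433 ± 0.0587 CPM in WT (SD, n = 3 each). Its log2 fold change was 3.53 (SE 1.11, adjusted p 0.675 by edgeR's quasi-likelihood test). Without KO replicate 3 it was 1.80, and without both KO replicate 3 and WT replicate 1, a setting chosen after seeing the data, it was 1.16. The pooled fold was 11.5, with a counting interval of 5.01 to 32.4. The precursor is printed because Mir370 had the most reads of any member, with its mature arms in capitals.
Mir370: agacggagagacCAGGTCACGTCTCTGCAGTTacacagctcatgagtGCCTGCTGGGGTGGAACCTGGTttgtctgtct

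Mir370 and DQ267100 both lie in Rian, and their values differed in direction. DQ267100, the locus snoRNA with the most reads, had 2, 0 and 1 reads in KO replicates 1 to 3, against 59, 51 and 52 reads in WT replicates 1 to 3. Its log2 fold change was -5.46 (SE 0.58, adjusted p 0.000587 by edgeR's quasi-likelihood test), and it was the 1 feature called in the whole table, where without KO replicate 3 no feature was called. Of the 10 locus snoRNAs, 10 had a lower mean CPM in KO, and 6 had every KO library below every WT library, where 9.22% of all features did so. The difference between the snoRNAs and the miRNA features was not tested. The long transcripts Meg3, Rtl1, Rian and Mirg are not among the listed features, so the host RNAs themselves were not measured.

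On the Mirg side 4 features held most of the reads, and each had its highest level in KO replicate 3. Mir381 (chr12:109726822-109726896, plus strand, upstream of Mirg and within no longer gene of GENCODE M21) had 4, 16 and 37 reads in KO replicates 1 to 3, against 0, 7 and 4 reads in WT replicates 1 to 3. KO replicate 1, at 0.0825 CPM, was close to WT replicate 3, at 0.0788 CPM, and below WT replicate 2. Its level was 0.391 ± 0.357 CPM in KO and 0.0777 ± 0.0771 CPM in WT (SD, n = 3 each). The log2 fold change was 2.45 (SE 0.86, adjusted p 0.675 by edgeR's quasi-likelihood test), and it was 1.57 without KO replicate 3.

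Mir409, counted apart from its antisense partner, was the member that separated the genotypes, with 3, 12 and 35 reads in KO replicates 1 to 3, against 0, 1 and 2 reads in WT replicates 1 to 3. The lowest KO library, at 0.0619 CPM, exceeded the highest WT library, at 0.0394 CPM, by a margin of 1 read. Its log2 fold change was 4.01 (SE 0.97, adjusted p 0.382 by edgeR's quasi-likelihood test), and it was 2.92 without KO replicate 3. The pooled fold was 16.9, with a counting interval of 5.45 to 84.6. Its antisense partner Gm24321 had 0, 15 and 40 reads in KO replicates 1 to 3, against 0, 0 and 2 reads in WT replicates 1 to 3. In KO replicates 2 and 3 the partner thus had slightly more reads than Mir409 itself, and in KO replicate 1 it had none. The log2 fold change of Gm24321 was 4.65 (SE 1.30, adjusted p 0.576 by edgeR's quasi-likelihood test), and it was 3.42 without KO replicate 3. Without WT replicate 3 no WT read of Gm24321 remains. The pair summed had 3, 27 and 75 reads in KO replicates 1 to 3, against 0, 1 and 4 reads in WT replicates 1 to 3. KO replicate 1, at 0.0619 CPM, then lay below WT replicate 3, at 0.0788 CPM, so the pair summed did not separate the genotypes. With overlapping members summed, the log2 fold change of the pair was 4.40 (adjusted p 0.530 by edgeR's quasi-likelihood test).

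Mir543 (chr12:109717258-109717333, plus strand) had 2, 1 and 19 reads in KO replicates 1 to 3, against 0, 2 and 0 reads in WT replicates 1 to 3. KO replicate 3 alone was high, and KO replicates 1 and 2 did not exceed WT replicate 2. Its log2 fold change was 3.35 (SE 1.30, adjusted p 0.675 by edgeR's quasi-likelihood test), and it was 1.19 without KO replicate 3. The other 17 members of the Mirg side had at most 9 reads each, 32 KO and 12 WT reads in all. They include Mir382 with 6 KO and 3 WT reads, Mir134 with 4 KO and 2 WT reads and Mir495 with 4 KO and 0 WT reads. Mir541 had its 1 read in a WT library.

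The 21 features of the Mirg side together had 9, 65 and 142 reads in KO replicates 1 to 3, against 0, 19 and 11 reads in WT replicates 1 to 3. Their summed level was 1.48 ± 1.42 CPM in KO and 0.212 ± 0.209 CPM in WT (SD, n = 3 each), a log2 ratio of means of 2.81. KO replicate 1, at 0.186 CPM, lay below WT replicates 2 and 3, at 0.419 and 0.217 CPM. Leaving out KO replicate 3 gave a log2 ratio of 1.77, and leaving out WT replicate 1 as well gave 1.18. Leaving out Gm24321 gave 2.47.

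**Figure D3:**
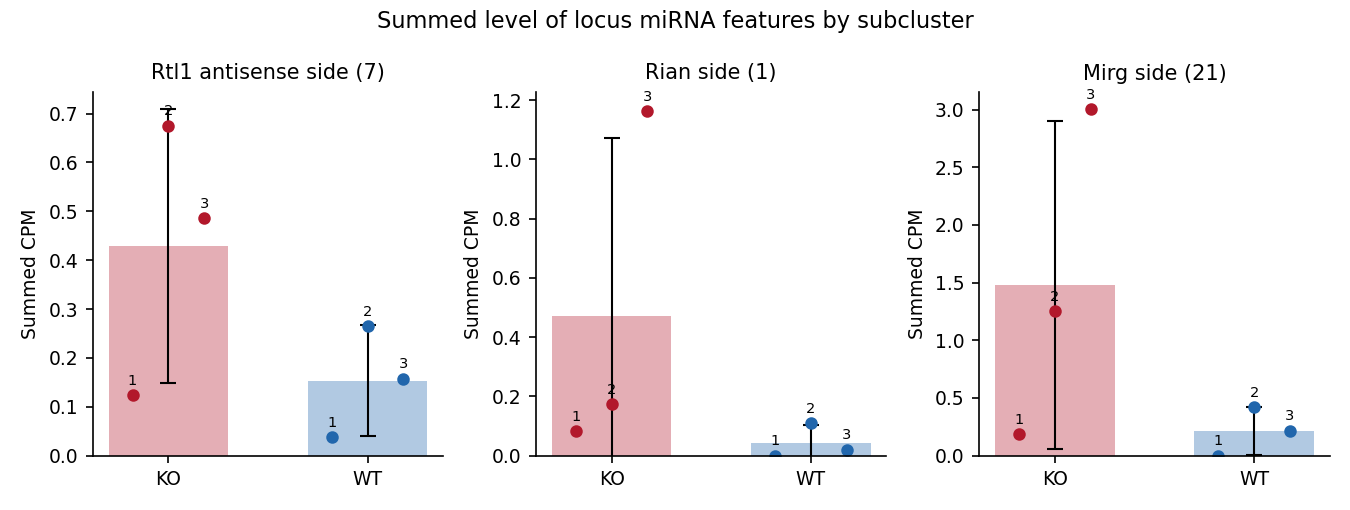
Summed CPM of the members of each subcluster (number of members in brackets), KO left and WT right. Bars are means, error bars 1 SD over 3 libraries (cut at 0), and points single libraries with their replicate number. KO replicate 3 is highest on the Rian side, at 1.16 CPM, and on the Mirg side, at 3.00 CPM, and KO replicate 2 is highest on the Rtl1 antisense side, at 0.675 CPM.

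The subcluster sums differed in which KO library was highest, and single members did not all follow the sum of their side. The level in KO replicate 3 was 0.720 times that in KO replicate 2 on the Rtl1 antisense side, 6.70 times on the Rian side and 2.39 times on the Mirg side. Among the 7 most-read members this ratio was 0.457 for Mir127 and 2.19 or more for the other 6. Mir493, on the same side as Mir127, had a ratio of 2.19, with 8 reads against 4. The highest ratio, 20.8, was that of Mir543, which rests on 19 reads against 1. The 22 rarer members, like Mir127, had their most reads in KO replicate 2, with 0, 28 and 16 reads in KO replicates 1 to 3, against 1, 13 and 4 reads in WT replicates 1 to 3.

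As a share of the locus miRNA reads, the Rtl1 antisense side held 31.6%, 32.1% and 10.5% in KO replicates 1 to 3, against 100%, 33.3% and 40.0% in WT replicates 1 to 3. The exact binomial 95% interval was 12.6% to 56.6% in KO replicate 1 with 19 reads, 23.5% to 41.7% in KO replicate 2 with 109 reads and 6.74% to 15.3% in KO replicate 3 with 220 reads. WT replicate 1 had 2 reads, so its share of 100% allows any value down to 15.8%. KO replicate 2 thus had a share within the intervals of WT replicates 2 and 3, 18.6% to 51.0% and 19.1% to 63.9%, and KO replicate 3 had a lower one. The Mirg side held 47.4%, 59.6% and 64.5% in KO replicates 1 to 3, against 0%, 52.8% and 55.0% in WT replicates 1 to 3. Mir370 held 21.1%, 8.26% and 25.0% in KO replicates 1 to 3, against 0%, 13.9% and 5.0% in WT replicates 1 to 3. Except for WT replicate 1, the Mirg side held the largest share in every library. The difference in make-up between the genotypes was not tested.

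**Figure D4:**
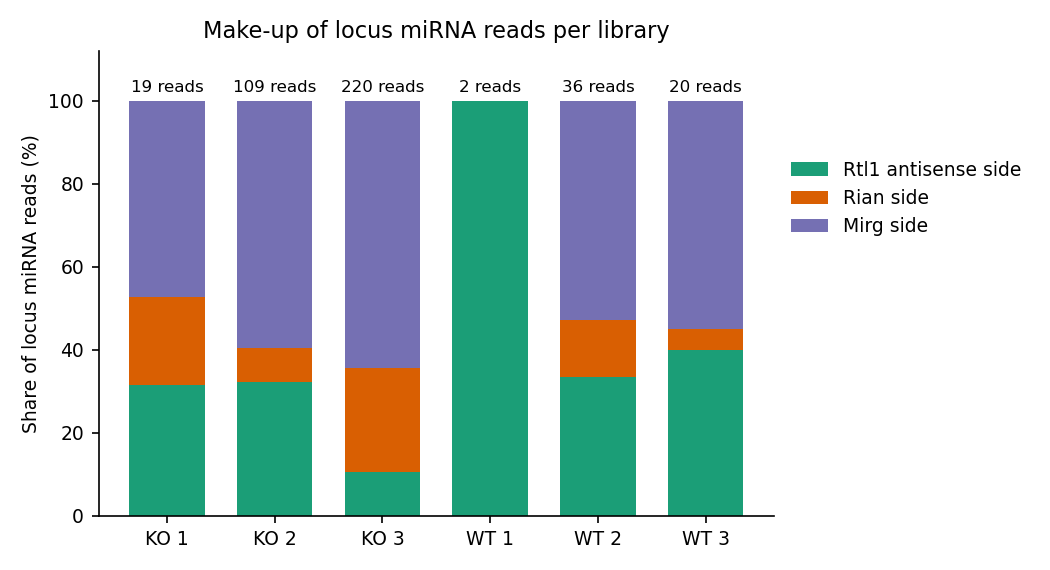
Share in percent of the locus miRNA reads that fell in each subcluster, per library, with the number of reads above each bar. The Rtl1 antisense share is 10.5% in KO replicate 3 and 31.6% to 40.0% in the other libraries except WT replicate 1, which has 2 reads.

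Levels were compared between members per length of the feature, in reads per 100 nt summed over 3 libraries. In the KO libraries the order was Mir370 (86.1), Mir381 (76.0), Gm24321 (68.8), Mir409 (63.3), Mir127 (57.1), Mir543 (28.9) and Mir493 (14.5). In the WT libraries it was Mir127 (21.4), Mir381 (14.7), Mir370 (7.59), Mir409 (3.8), Mir543 (2.63), Gm24321 (2.5) and Mir493 (1.2). Neighbours in either order differed by less than the larger of their SDs between the libraries of a genotype, though not always by less than the smaller. The WT order below Mir370 rests on 3 reads or fewer per member. The 7 features are 70 to 83 nt long and 40.0% to 57.1% G and C, within the range of the 38 annotated features with no read, which are 49 to 123 nt long and 29.1% to 74.4% G and C.

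Markers of other cell types moved with these reads, and their part in the result was not tested. Mir126a, a miRNA of endothelium and of haematopoietic stem cells, had 274, 394 and 821 reads in KO replicates 1 to 3, against 29, 245 and 173 reads in WT replicates 1 to 3. It was thus highest in KO replicate 3 and lowest in WT replicate 1, like Mir370, Mir381 and Mir409. Its log2 fold change was 1.79 (SE 0.65, adjusted p 0.675 by edgeR's quasi-likelihood test). Both endothelial markers were listed and summed to 5.65 to 17.4 CPM in KO and 0.544 to 5.42 CPM in WT, with Mir126b at 0 or 1 read in each library.

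All 9 mesenchymal and stromal markers were listed, and Mir21a, which blood cells also express, supplied nearly all of their sum. The 9 summed to 779, 1252 and 1109 CPM in KO replicates 1 to 3, against 513, 1434 and 737 CPM in WT replicates 1 to 3. The full list was thus highest in WT replicate 2. A sum without Mir21a was not part of the planned list. Without Mir21a the other 8 summed to 2.25, 7.0 and 3.07 CPM in KO replicates 1 to 3, against 1.09, 3.79 and 2.44 CPM in WT replicates 1 to 3. The sum of these 8 was highest in KO replicate 2, like Mir127 and the sum of the rarer members. So were the sums of the 6 skeletal muscle markers and of the 4 erythroid markers. Not every marker followed its sum. The erythroid marker Mir486a was highest in KO replicate 3, at 1.27 CPM, and the mesenchymal marker Mir218-1 in WT replicate 2, at 0.0881 CPM. The T lymphoid and myeloid sums and the sum of all miRNA features outside the locus also peaked in KO replicate 2. The erythroid sum was 4.16 to 9.78 CPM in KO and 2.05 to 4.79 CPM in WT. The log2 ratio of the 29-member sum was 2.55 over all libraries, 2.63 without KO replicate 2, 1.61 without KO replicate 3 and 3.47 without WT replicate 2.

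The summed blood cell markers were above 0 in every library, while the primitive marker Mir130a had 0 or 1 read in each. Mir150, the B lymphoid marker, had 4.0 to 6.09 CPM in KO and 0.694 to 3.19 CPM in WT, with no overlap. The 2 myeloid markers summed to 15.5 to 23.2 CPM in KO and 9.68 to 21.1 CPM in WT, the 2 T lymphoid markers to 9.28 to 24.3 CPM in KO and 8.59 to 16.1 CPM in WT, and the 6 primitive haematopoietic markers to 55.9 to 67.3 CPM in KO and 39.5 to 88.3 CPM in WT. Mir10a supplied nearly all of the primitive sum, at 53.9 to 64.6 CPM in KO and 38.2 to 85.1 CPM in WT. Mir125a of that list had 0.275 to 0.482 CPM in KO and 0.0563 to 0.220 CPM in WT, with no overlap. The other markers of that list overlapped between the genotypes. Of the single markers in all lists, only Mir150, Mir125a and the endothelial marker Mir126a had every KO library above every WT library. Of all features, 1.26% did so. No single marker had every KO library below every WT library, where 9.22% of all features did so. In these libraries of many cells, fewer cells of a type and less RNA per cell cannot be told apart.

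**Figure D5:**
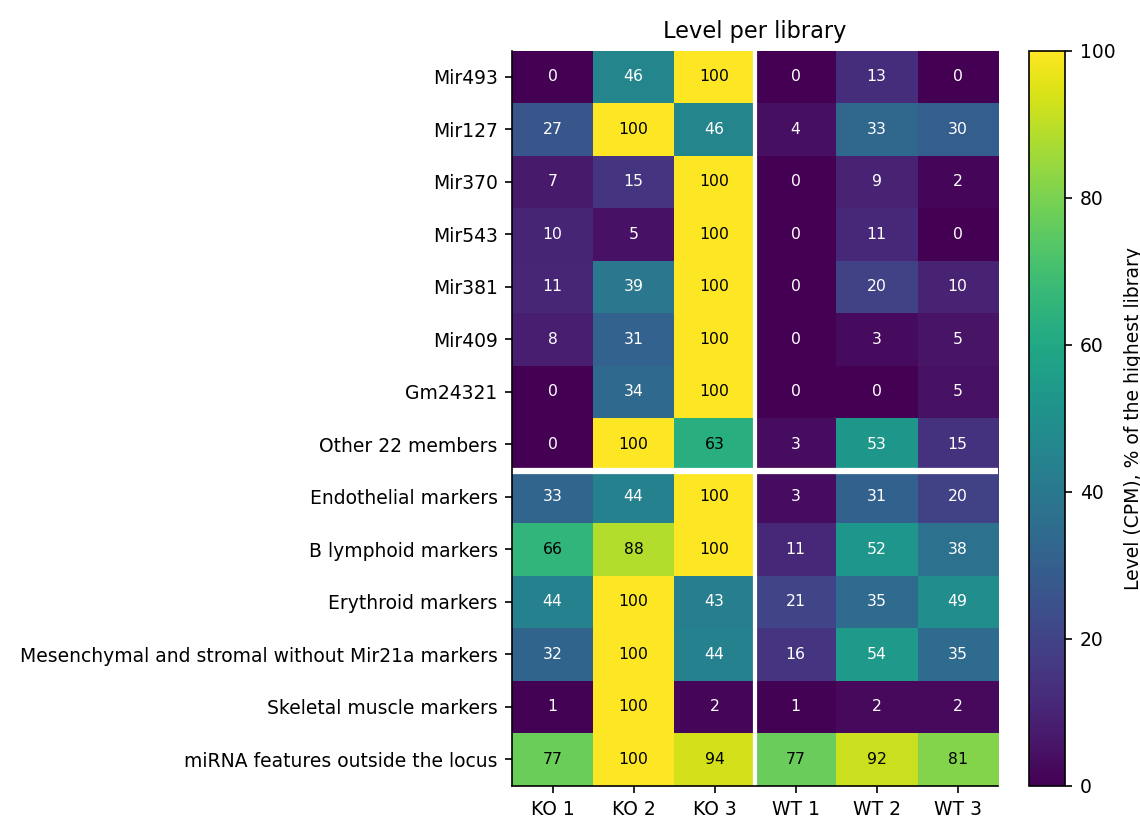
Level per library as percent of the highest library, for the 7 most-read members and the sum of the 22 others (above the white line) and for marker lists and all miRNA features outside the locus (below it). Mir127, the rarer members and all miRNA features outside the locus peak in KO replicate 2. So do the erythroid and muscle lists and the mesenchymal list without Mir21a, which with Mir21a peaks in WT replicate 2 (not shown). The other 6 members and the endothelial and B lymphoid lists peak in KO replicate 3.

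miRNA features outside the locus gave a comparison within the same libraries, though their lengths were not compared with those of the members. Of 883, 430 had a higher mean CPM in KO and 453 a lower one, and none was called by edgeR over all features, with 25 higher and 17 lower at an unadjusted p under 0.05. Their sum was 0.873%, 1.13% and 1.06% of the counts in KO replicates 1 to 3, against 0.871%, 1.04% and 0.918% in WT replicates 1 to 3. Per read of these miRNA features, the log2 ratio of the 29-member sum was 2.44. Of 5 miRNAs listed for other imprinted genes, 3 had reads, Mir335 of Mest and Mir296 and Mir298 of the Gnas region. They summed to 26, 50 and 26 reads in KO replicates 1 to 3, against 29, 30 and 25 reads in WT replicates 1 to 3, and none was called by edgeR.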

How the data were processed

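Small RNA reads of bone marrow cells were analysed from 1 count table per library, with group and replicate number taken from the titles. The authors deposited read counts per feature with no normalization recorded. Trimmomatic 0.38, Bowtie2 2.3.4.1 and GRCm38 were used, per the submitters' processing notes, and the sources used here do not state the counter, its annotation, or how strand and multiple matches were handled. A feature missing from a table was set to 0. Features were named by GENCODE M21 position (1822 of 1823 matched), and sequences came from RefSeq and GENCODE, with 26 of 29 members matched in RefSeq.

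Counts of all 1823 features were fitted with edgeR 4.0.16 (version 4 quasi-likelihood, TMM, genotype only, two-sided, threshold 0.05) in R 4.3.3. No filter on low counts was used, because edgeR's default filter keeps 624 features and 0 members. The SE was derived from the log2 fold change and the F statistic. The fit was checked on simulated counts. DESeq2 1.42.0, other scalings, filters, the replicate block and left-out libraries were alternatives. Replicates differed by far more than sampling noise. Members named in full were those with at least 10 reads in all or called by any planned fit. Members, lists and tests were chosen with earlier results of these data known.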

Additional observations from a re-analysis of the deposited data

How the results depend on the processing

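All 7 members named in full kept a positive log2 fold change in all 111 alternative values computed for them. These values are refits of the same 6 libraries, so they are not independent of each other. Mir493, Mir370, Mir543, Mir409 and Gm24321 reached 10 reads only through their KO reads. The naming rule thus favoured a positive sign for them. None of the 29 members was called with library totals alone, RLE size factors, at least 10 counts, DESeq2, overlapping members summed or any library left out, and with the default filter no member was left. The older quasi-likelihood method called 3 members, and of the settings chosen after seeing the data, TMM factors from miRNA features outside the locus called 5 and a fit over miRNA features only called 3. The cause was not tested. Over all features, 1 was called in the main analysis, 2 with library totals alone, 2 with DESeq2, 13 with the older method, 24 with TMM from outside miRNAs, 0 without KO replicate 3 and WT replicate 1, and 0 to 2 with 1 library left out (0 without KO replicate 3, 2 without WT replicate 2). With any 1 library left out, the log2 ratio of summed levels was 1.61 to 3.47 for all members, 0.99 to 2.13 on the Rtl1 antisense side, 1.57 to 5.59 on the Rian side and 1.77 to 3.77 on the Mirg side. Without Mir127 the mean Rtl1 antisense share in KO was 6.38%, against 24.7% with it, and without Mir381 the mean Mirg share in KO was 47.8%, against 57.2% with it.

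The correlations of same-numbered deviations were -0.20, 0.38 and -0.48, and those of other-numbered deviations were -0.50 to 0.66. No pairing by replicate number was seen, but with 3 libraries per genotype this check cannot exclude it. With the replicate block 0 members and 1 feature in all were called. Depth limits every member, since the WT libraries hold 58 member reads in all.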
